A study of Mus musculus with 12 samples.

Results

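The Akr1c genes are a family of aldo-keto reductases that act as hydroxysteroid dehydrogenases. The 8 genes considered here (Akr1c6, Akr1c12, Akr1c13, Akr1c14, Akr1c18, Akr1c19, Akr1c20 and Akr1c21) were taken as a family because Akr1c14 was lower in the skin, and in the mean of the 29-day tissues, of mice without Sirt6. The family was thus chosen by measured ratios of these arrays, and those values are given below as descriptions, with no test. Of the 8 genes, 4 had a probe with their symbol (Akr1c6, Akr1c14, Akr1c18 and Akr1c21, 1 probe each), out of 14654 genes named on the array. Akr1c12, Akr1c13, Akr1c19 and Akr1c20 are named only.

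Hydroxysteroid dehydrogenases of this family reduce or oxidise single positions of a steroid with a nicotinamide cofactor, and so set how much of an active hormone stays in a tissue. Akr1c14 is the mouse 3-alpha-hydroxysteroid dehydrogenase, which reduces dihydrotestosterone and the 5-alpha-reduced form of progesterone. Akr1c18 is the enzyme that converts progesterone to its weakly active 20-alpha-hydroxy form, best known from the ovary at the end of pregnancy. Akr1c6 interconverts androstenedione and testosterone and is abundant in liver. Akr1c21 makes epitestosterone and other steroids of the alpha configuration and is best known from kidney.

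The arrays set each tissue of Sirt6-/- mice against the matching tissue of wild type mice of that age. Sirt6 is a chromatin-bound deacylase. At 29 days of age the tissues were thymus, skin, liver and spleen, and at 21 days liver and spleen, with 2 arrays for each of these 6 groups. The knockout sample was always labelled with Cy5 and the wild type sample with Cy3, so dye and genotype were not exchanged on any array. The wild type RNA at 21 days was a pool of 3 littermates, and its make-up at 29 days is not given in the labels. The labels do not say whether the knockout covers all tissues, on which strain it was kept, or which animals each array of a group came from. In each 29-day tissue the Y-linked gene Eif2s3y was near 0 on replicate 1 and at 3.35 or higher on replicate 2, so the arrays of those groups did not carry the same pair of RNA samples. At 21 days the spread between arrays, on which p-values rest, may be technical. All values below are log2 of knockout over wild type, centred on each array's median, so that a negative value is less RNA in the knockout. They are ratios and not levels, so the labelled tissues could not be checked by the level of their markers. A ratio near 0 does not show that the RNA was present in a tissue. In whole tissue, fewer cells of a type and less RNA per cell cannot be told apart.

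Arrays held 28629 to 38445 values out of 38784 probes. Replicates correlated weakly over probes, between -0.28 in 29-day spleen and 0.46 in 29-day thymus. The spread of ratios was wider on the 21-day arrays (SD 0.717 to 1.14) than on the 29-day arrays (SD 0.308 to 0.657). The group means of Sirt6 itself ran from -1.18 (21-day spleen) to 0.17 (29-day spleen), and none passed at an adjusted p of 0.05 in limma. Where the Sirt6 probes lie relative to the deleted part was not analysed here, so this is no check of the genotype labels.

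The members share a stretch of chromosome 13, where RefSeq (GRCm38.p6) orders them Akr1c14, Akr1c18, Akr1c13, Akr1c19, Akr1c12, Akr1c6, Akr1c20 and Akr1c21 between Ucn3 and Akr1e1. Promoters of the 3 members with the lowest group means are shown because Akr1c14 and Akr1c18, which are neighbours, both had low values in skin, and Akr1c14 and Akr1c6 both had low values in liver. Each runs from 250 bases before to 50 bases after the annotated start, from RefSeq. They lie at chr13:4059341-4059640 on the plus strand (Akr1c14), chr13:4150597-4150896 on the minus strand (Akr1c18) and chr13:4434093-4434392 on the plus strand (Akr1c6). The capitals mark the longest run that all 3 hold within 10 bases of its place in Akr1c14, a run looked for after the ratios were known.
Akr1c14: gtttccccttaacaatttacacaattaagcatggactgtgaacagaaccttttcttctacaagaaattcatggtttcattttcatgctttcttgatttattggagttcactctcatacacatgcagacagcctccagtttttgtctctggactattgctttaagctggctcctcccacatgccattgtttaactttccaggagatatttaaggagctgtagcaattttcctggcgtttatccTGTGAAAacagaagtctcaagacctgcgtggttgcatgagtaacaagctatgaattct
Akr1c18: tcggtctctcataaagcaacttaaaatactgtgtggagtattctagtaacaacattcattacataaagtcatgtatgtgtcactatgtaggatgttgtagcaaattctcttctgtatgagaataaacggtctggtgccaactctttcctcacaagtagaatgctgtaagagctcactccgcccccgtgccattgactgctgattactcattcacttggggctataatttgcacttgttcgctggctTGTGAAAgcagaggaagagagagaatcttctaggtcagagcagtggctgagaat
Akr1c6: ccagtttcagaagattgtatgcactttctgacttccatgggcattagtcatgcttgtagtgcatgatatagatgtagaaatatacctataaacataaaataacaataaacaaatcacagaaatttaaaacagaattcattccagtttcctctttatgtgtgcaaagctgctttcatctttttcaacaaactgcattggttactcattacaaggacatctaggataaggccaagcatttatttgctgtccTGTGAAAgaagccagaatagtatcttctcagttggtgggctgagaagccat

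The shared run, TGTGAAA, begins at base 243 of the Akr1c14 promoter, base 247 of that of Akr1c18 and base 250 of that of Akr1c6, which is 8, 4 and 1 bases before the start. Among 32851 mouse promoters of the same length, 2.31% hold it on the same strand at any position, and in 0.0548% it begins between bases 243 and 250. The Akr1c21 promoter does not hold it, and nor do those of Akr1c12, Akr1c13 and Akr1c19, which have no ratio. Both the run and the range of bases were taken from the promoters shown, which were chosen by low ratios. The shares thus cannot test a link between the run and the ratios, and neither can its absence from Akr1c21. Aligned end to end, the promoters of Akr1c14 and Akr1c18 were identical at 52.2% of positions, and that of Akr1c6 at 49.5% with Akr1c14 and 50.6% with Akr1c18.

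Short motifs were searched on both strands of the promoters in hand, with overlaps counted. The letters TATAAA, which form the core of a classic promoter box and are in 13.6% of all promoters, were in Akr1c6, from base 87 to base 92. There they begin 164 bases before the annotated start, and whether they act as such a box was not tested. AGGTCA, the core that many nuclear receptors bind, in 16.3%, was in Akr1c18, from base 278 to base 283. GTTAAT (7.1%), a core of HNF1 sites, was in Akr1c21, as was ACGTG (19.6%), the core letters of a HIF site. Its hits on opposite strands overlap in the palindrome CACGTG, from base 210 to base 215. Whether HIF binds there was not tested. TTCNNNGAA (8.3%), a STAT5 site, and TGACNNNGC (12.4%), the antioxidant response core, were in Akr1c19. The steroid receptor core AGAACA, present in 19% of all promoters, was in none of the 7 members' promoters that were in hand. The same held for the C/EBP site, spelled TTGCNNAA and present in 10.8%, and for the NF-kB site, spelled GGGNNTTCC and present in 5.82%. The Akr1c14 window held none of the 9 motifs searched.

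In 29-day skin, Akr1c14 had a log2 ratio of -1.87 on replicate 1 and -1.85 on replicate 2. Its mean of -1.86 (SD 0.013 between 2 arrays) is 3.63-fold less RNA in the knockout, and it ranked 17 from the lowest of 30810 features. Akr1c18, its neighbour, had -1.08 and -1.36 in skin, a mean of -1.22 (SD 0.20), 2.32-fold lower and rank 61. Both genes were low on both skin arrays, in the bottom 0.566% of features on each. Skin is the contrast that chose the family, where 0.0389% of features passed an adjusted p of 0.05, and nothing is read from that share here.

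Akr1c6 and Akr1c21 did not share the low skin values. Akr1c6 gave 0.07 and -0.18 in skin, with a mean of -0.06. Akr1c21 gave 0.00 and 0.28, with a mean of 0.14. The 4 measured members thus fell into 2 low and 2 near 0 in this tissue.

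**Figure D1:**
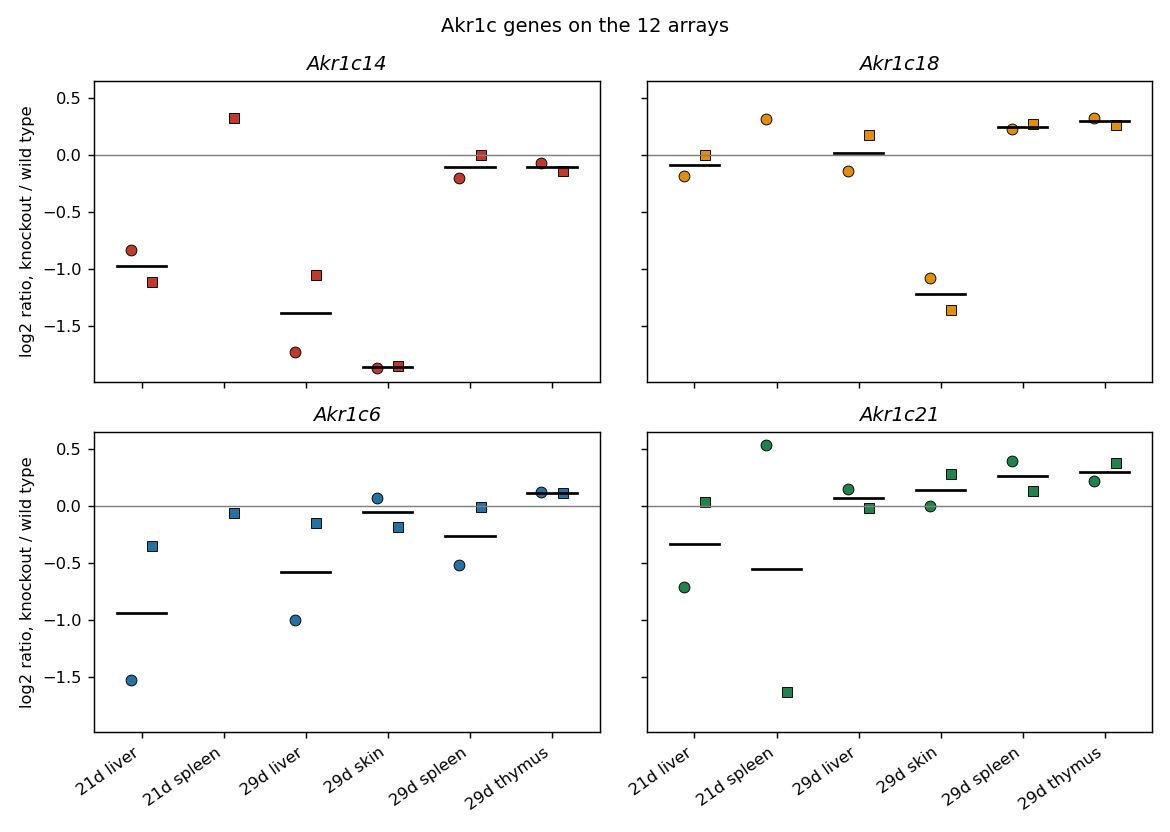
Median-centred log2 ratio of knockout over wild type (y axis) of the 4 measured Akr1c genes on each array, by group (x axis). Circles are the lower and squares the higher replicate number, and lines are means of 2 arrays. Akr1c14 sits between -1.87 and -0.83 on all liver and skin arrays, and Akr1c18 is low in skin alone of the groups shown.

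Markers of skin cell types were read beside these values. The 6 adipocyte markers had a median of -0.73 on skin replicate 1 and -0.55 on replicate 2, with Lep (leptin) at -2.13 and -0.83. The 6 dermal fibroblast markers had medians of -0.54 and -0.16. The 3 measured keratinocyte markers had medians of 0.35 and 0.24, and the 5 sebocyte markers -0.09 and 0.19. The lists were not uniform: Cidec, an adipocyte marker, had 0.12 and 0.41, and Dcn, a fibroblast marker, had 0.50 and 0.36. The 5 measured skeletal muscle markers had medians of 0.38 and 0.55. The 6 neutrophil markers had medians of 0.42 and 0.14, with S100a9 at 2.59 and 1.18. No marker of these 6 lists passed the test in skin, and their part in the values of Akr1c14 and Akr1c18 was not tested.

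**Figure D2:**
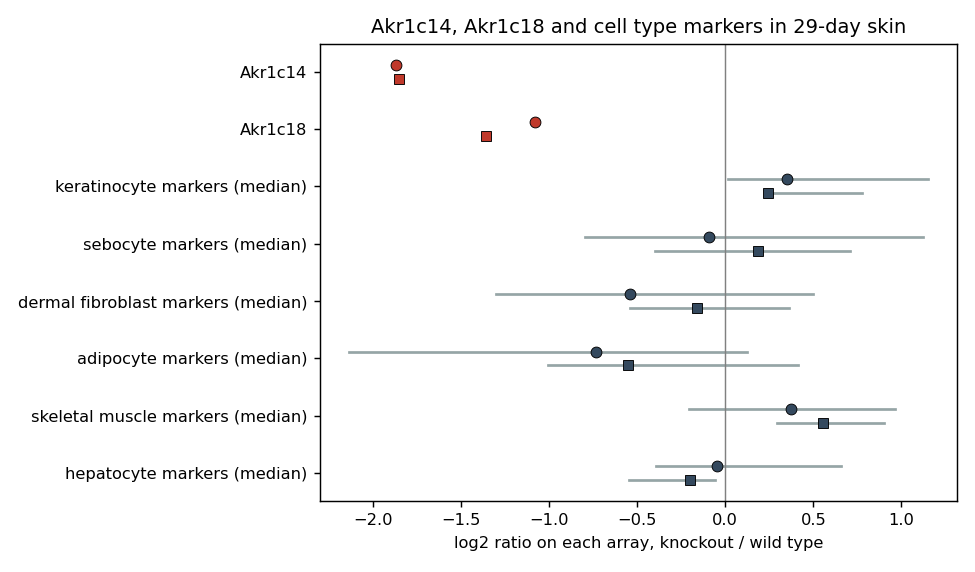
Log2 ratios in 29-day skin (x axis), replicate 1 as circles and replicate 2 as squares. Akr1c14 and Akr1c18 are single genes, and the other rows are medians of marker lists with lines from the lowest to the highest marker. Akr1c14 lies below the median of every list shown, while single adipocyte markers reach -2.13.

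Akr1c14 had negative values on all liver arrays at both ages. In 21-day liver, whose ratios did not enter the choice of the family, it had -0.83 on replicate 2 and -1.11 on replicate 11, a mean of -0.97, or 1.96-fold less RNA in the knockout. It ranked 1658 from the lowest of 29093 features there. Fitted with the 21-day arrays alone the mean did not pass (limma adjusted p = 0.654). In the joint fit of all 12 arrays it had an adjusted p of 0.0456 in limma (SE 0.20, 95% interval -1.43 to -0.52), in a group where 2.54% of features passed. That SE pools the spread of the 29-day arrays, skin included, which chose the gene, so the p-value of the joint fit is not independent of the choice. No other member passed in any of the tests made.

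The settings that can move the mean of Akr1c14 in 21-day liver gave the same direction. They were no centring, scaling, quantile normalization and leaving out an array of 21-day liver. An age alone, robust eBayes, single probes and leaving out arrays of other groups cannot move it. Nor did array weights, which were equal for both arrays of this group, so these settings are no check of the direction. The joint fit no longer passed when arrays were scaled to the same spread (-0.70, limma adjusted p = 0.417), after quantile normalization (-0.70, limma adjusted p = 0.377) or with array quality weights (limma adjusted p = 0.136). It passed in 2 of the 12 fits that left out an array, those without an array of 21-day spleen, and the limma adjusted p over the 12 ran from 0.0203 to 0.186. The mean was -1.11 without replicate 2 and -0.83 without replicate 11.

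In 29-day liver Akr1c14 had -1.73 on replicate 1 and -1.05 on replicate 2, a mean of -1.39 (SD 0.48), or 2.62-fold lower. It ranked 80 from the lowest of 30812 features. The 29-day arrays entered the mean that chose the family, so this value is a description. The difference between ages in liver was -0.42, with a 95% interval from -1.06 to 0.23, and it too is a description. It moved to -1.61 with arrays scaled and to -1.45 after quantile normalization, and it was -0.08 without replicate 1 and -0.75 without replicate 2 of 29-day liver.

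Such low values were not seen in spleen and thymus, where the level of Akr1c14 was not read. Akr1c14 had -0.20 and 0.00 in 29-day spleen and -0.07 and -0.14 in 29-day thymus. The 21-day spleen gave a value on replicate 11 alone, 0.32. The mean over the 4 tissues at 29 days was -0.86, of which skin and liver gave the larger share, in a contrast where 0.049% of features passed. From the lowest, the order of group means was 29-day skin (-1.86), 29-day liver (-1.39), 21-day liver (-0.97), 29-day thymus (-0.11) and 29-day spleen (-0.10). The arrays of 29-day and 21-day liver overlapped in range, as did those of thymus and spleen, while all 6 liver and skin arrays lay below all 5 spleen and thymus arrays with a value.

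**Figure D3:**
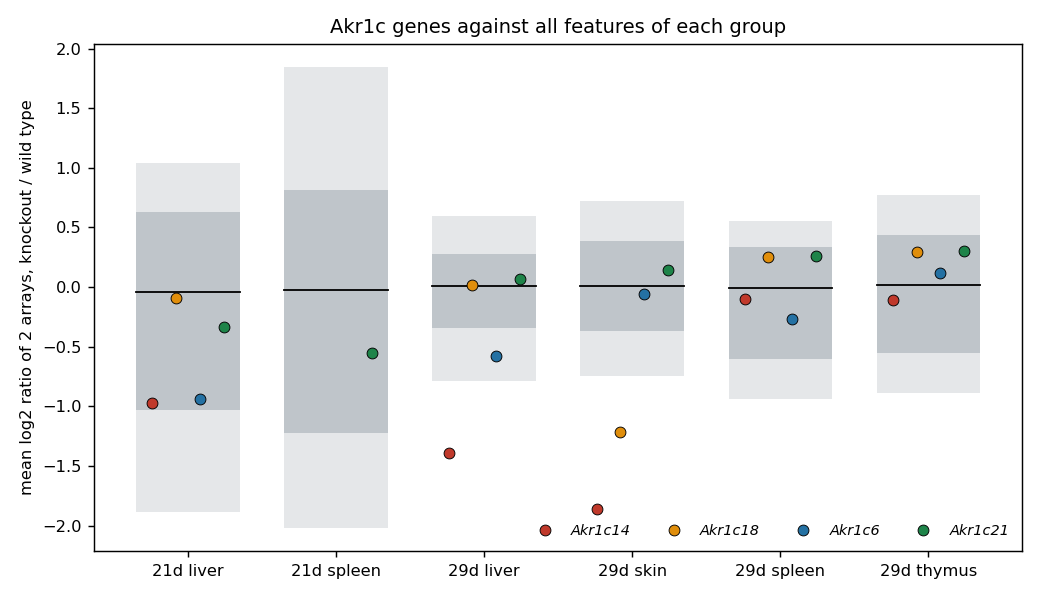
Mean log2 ratio of 2 arrays (y axis) of each Akr1c gene by group (x axis), against all features: light grey spans the 1st to the 99th percentile, dark grey the 5th to the 95th, and the line is the median. In 29-day liver and skin Akr1c14 lies below the light band, and in 21-day liver it lies within it.

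Akr1c6 had low liver values on some arrays only. In 21-day liver it had -1.52 on replicate 2 and -0.35 on replicate 11. The mean of -0.94 (SE 0.31, 95% interval -1.64 to -0.24) did not pass (limma adjusted p = 0.146). In 29-day liver it had -1.00 on replicate 1 and -0.15 on replicate 2, a mean of -0.58 (SE 0.31), which did not pass (limma adjusted p = 1). All 4 liver values lay below 0 while replicates differed by more than 0.8, and 0.104% of features passed in 29-day liver.

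The other values of Akr1c6 were smaller. It had -0.52 and -0.01 in 29-day spleen, 0.12 on both arrays of 29-day thymus, and -0.06 on the 1 array of 21-day spleen with a value. Its difference between 29-day liver and the mean of the other tissues at that age was -0.51 (95% interval -1.32 to 0.30, limma adjusted p = 1). In that contrast 0.0359% of features passed. The change from 21 to 29 days in liver was 0.36 (95% interval -0.63 to 1.35, limma adjusted p = 0.872), where 0.0138% of features passed. These intervals are wide, and a miss does not show that the tissues or ages were alike.

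Akr1c18 stayed near or above 0 outside skin. In liver it had -0.18 and 0.01 at 21 days, then -0.14 and 0.17 at 29 days. It had 0.23 and 0.27 in 29-day spleen and 0.33 and 0.27 in 29-day thymus, and 0.32 on the 1 array of 21-day spleen with a value. No tested mean of Akr1c18 passed (lowest limma adjusted p = 0.825). In 29-day spleen none of 30783 features passed the limma test (1015 had an unadjusted p under 0.05, and quantile normalization gave 12), a share of 0%, and in 29-day thymus 0.013% passed.

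Akr1c21 had opposite signs on the arrays of both 21-day tissues. In 21-day spleen it had 0.53 on replicate 6 and -1.63 on replicate 11, a mean of -0.55 (SE 0.40) that did not pass (limma adjusted p = 0.399), in a group where 4.13% of features passed. Without replicate 11 the mean was 0.53, and without replicate 6 it was -1.63, so the sign rests on a single array. In 21-day liver it had -0.71 and 0.04. At 29 days its values were 0.15 and -0.01 in liver, 0.39 and 0.13 in spleen, and 0.22 and 0.38 in thymus. It was the sole member with values for the contrasts on 21-day spleen: its change from 21 to 29 days in spleen was 0.81 (limma adjusted p = 0.654; 0.0866% of features passed), and its difference between 21-day liver and spleen was 0.21 (limma adjusted p = 0.877; 0.163% passed).

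Over the arrays where both had a value (n = 10), Akr1c14 and Akr1c18 had a Pearson r of 0.82. Without both skin arrays, left out after seeing the data, r was 0.81 (n = 8). The other pairs of members lay between -0.31 and 0.26 (n = 10 or 11). These are descriptions across arrays of different tissues. Genes that flank the cluster did not share the skin values of Akr1c14. Ucn3 had a mean of -0.01 in skin and Akr1e1, an aldo-keto reductase that reduces anhydrofructose, had -0.05. Akr1e1 had -0.54 in 21-day liver and -0.40 in 29-day liver, neither of which passed.

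The genes whose pattern over 11 arrays was most like that of Akr1c14 were found among 11219 named genes with a value on all 12 arrays. They were Trmt9b (Pearson r 0.95), Slit2 (0.86), which encodes a ligand of Robo receptors, Hpgd (0.86), the enzyme that inactivates prostaglandins, Hnmt (0.85), the histamine methyltransferase, and Enpep (0.85), an aminopeptidase. Hnmt had -1.23 and -1.14 in skin and -0.63 and -0.97 in 29-day liver. Trmt9b kept to a smaller range there, with -0.36 and -0.41 in skin and -0.21 and -0.14 in 29-day liver. The 5 most like Akr1c6 were Casp14 (0.91), the caspase of the epidermis, Mab21l4 (0.89), Lca5l (0.88), Zfp59 (0.88) and Abca5 (0.88). None of these 10 genes passed in any contrast.

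Other enzymes of steroid metabolism gave the setting of these values. Of 28 other hydroxysteroid dehydrogenases and steroid reductases listed, 22 were measured. In 21-day liver 21 were tested, 3 passed as lower and 1 as higher, with a list median of -0.02 beside -0.04 for all features, of which 2.54% passed. None passed in the other 5 groups (limma), where the share of all features ran from 0% (29-day spleen) to 4.13% (21-day spleen, 14 genes tested). At such shares a list this short would hold few calls or none. Of 12 other aldo-keto reductases, 10 were measured (8 tested in 21-day spleen) and none passed in any group (limma). The largest of these in liver were Kcnab1 (-0.82 in 21-day liver, limma adjusted p = 0.0690) and Kcnab2 (0.67, limma adjusted p = 0.128), which are potassium channel beta subunits and not steroid enzymes.

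The steroid enzymes that passed as lower in 21-day liver were Hsd17b2, Hsd17b7 and Rdh16. Hsd17b2, which oxidises estradiol and testosterone to weaker forms, had -0.91 and -1.34 (mean -1.13, SE 0.21, limma adjusted p = 0.0326). Hsd17b7, an enzyme of cholesterol synthesis that can also make estradiol, had -1.23 and -2.73 (mean -1.98, SE 0.43, limma adjusted p = 0.0479). Rdh16, a retinol dehydrogenase that also oxidises 3-alpha-hydroxysteroids, had -1.00 and -1.03 (mean -1.02, SE 0.17, limma adjusted p = 0.0249). Hsd3b5, a male-biased keto-steroid reductase of mouse liver, rose, with 1.74 and 2.01 (mean 1.88, SE 0.20, limma adjusted p = 0.00384). At 29 days the liver means were -1.40 for Hsd17b2, -1.29 for Hsd17b7, -0.72 for Rdh16 and 0.23 for Hsd3b5, none of which passed. The 10 calls named here and below in 21-day liver shared a limit: fitted with the 21-day arrays alone none of the 10 passed in limma (2195 of all features had an unadjusted p under 0.05), 7 were lost when arrays were scaled and 8 after quantile normalization.

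Bile acid synthesis shares substrates with these enzymes. Of its 12 listed genes 11 were measured, and Cyp7b1, the oxysterol hydroxylase of the alternative pathway, was the 1 that passed in liver at either age. Other listed genes also had negative liver values without passing. It had -0.98 and -1.00 in 21-day liver (mean -0.99, SE 0.18, limma adjusted p = 0.0267) and -1.49 and -1.96 in 29-day liver (mean -1.73, limma adjusted p = 0.00764). Cyp7a1, the rate-limiting enzyme of the classic pathway, had -1.09 and -1.14 in 29-day liver and did not pass (limma adjusted p = 0.456). In 21-day spleen, where 4.13% of features passed, Cyp7a1 had -1.315 and -0.969 and passed as lower. The median of the list in 29-day liver was -0.45 beside 0.01 for all features, of which 0.104% passed.

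Targets of NRF2, the regulator of antioxidant and conjugating enzymes, include aldo-keto reductases in human cells. Of 20 listed, 15 were measured. Me1, the cytosolic malic enzyme, fell in 21-day liver (-0.86 and -0.98, mean -0.92, limma adjusted p = 0.0354) and in 29-day liver (-1.40 and -1.21, mean -1.31, limma adjusted p = 0.0426). The 29-day call was lost without centring, among features complete on all 12 arrays, and in 10 of the 12 fits that left out an array. No other listed target passed in liver at either age, where 2.54% (21 days) and 0.104% (29 days) of all features did. The list medians were -0.13 in 21-day liver and -0.36 in 29-day liver.

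**Figure D4:**
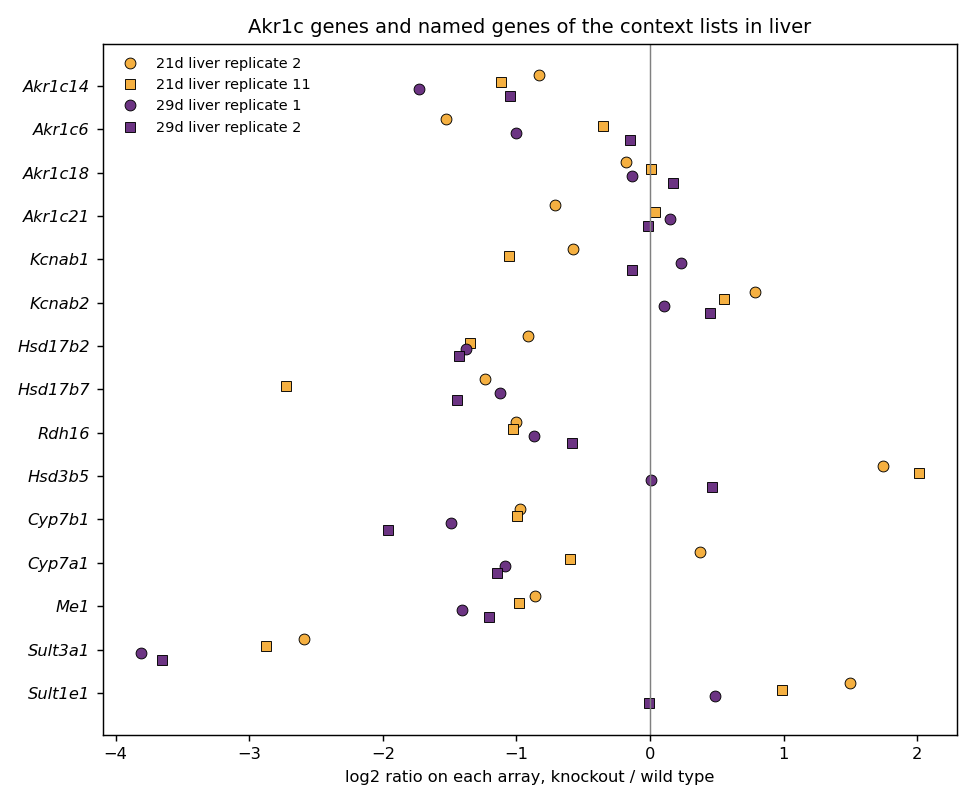
Log2 ratios on each liver array (x axis) of the 4 Akr1c genes and of named genes of the context lists; orange is 21-day and purple 29-day liver, with circles for the lower and squares for the higher replicate number. Akr1c14, Akr1c6, Hsd17b2, Hsd17b7, Rdh16, Cyp7b1, Me1 and Sult3a1 are below 0 on all 4 arrays, and Hsd3b5 is at 1.74 and 2.01 at 21 days.

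Several liver genes are known to differ between sexes in mice. Among 10 measured male-biased genes, 2 passed as higher (Hsd3b5 and Cyp2d9, mean 1.99) and 2 as lower (Cyp7b1 and Nudt7, mean -1.65) in 21-day liver. In 29-day liver 2 passed as lower (Cyp7b1 and Slco1a1, mean -2.00). Over all features 2.54% passed in 21-day and 0.104% in 29-day liver. Among 13 measured female-biased genes, Sult3a1, a sulfotransferase, fell at both ages (means -2.73 and -3.73), and Sult1e1, the estrogen sulfotransferase, rose at 21 days (mean 1.24). Y-linked genes (Eif2s3y, Kdm5d and Uty) differed between the channels of some arrays. In 21-day spleen Eif2s3y had -7.996 and -5.04 and passed, Kdm5d had 0.10 and -2.05, and Uty had 0.77 and 0.87, so the 3 genes did not run the same way there. Over all 3 genes, values ran from -3.97 to -0.32 in 21-day liver, from -0.45 to 0.37 on replicate 1 of the 29-day tissues and from 0.36 to 5.08 on replicate 2.

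Y-linked RNA comes from male tissue, and its ratios thus differed between these sets of arrays. In 29-day liver Akr1c14 had -1.73 on replicate 1 and -1.05 on replicate 2, and in skin -1.87 and -1.85. The part of sex in the values of the Akr1c genes was not tested. Of 12 hepatocyte markers 9 were measured. Their medians on the liver arrays were 0.41 on replicate 2 and -0.19 on replicate 11 at 21 days, then 0.36 on replicate 1 and 0.058 on replicate 2 at 29 days. Single markers ran from -1.10 (Fgb, a fibrinogen chain) to 0.88 on replicate 11, the 21-day array where Akr1c14 was lower, and Alb (albumin) was at -0.57 there. None of the 9 passed in liver, and their part in the liver values of Akr1c14 was not tested.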

How the data were processed

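Messenger RNA of 6 groups of 2 arrays was read as ratios. The authors deposited 1 table of log2 ratios per probe (Cy5, knockout, over Cy3, wild type, per the labels); base 2 is inferred from the values, and how they were scaled, centred or normalized was "not given in the sources used here". Spot intensities were not analysed here, so dim spots stayed in. Knockout RNA was extracted with TRIzol, per the labels' protocols.

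Each array was centred on its median (medians -0.22 to 0.21). GEO's platform annotation gave 1 symbol to 22204 probes and none to 16580; all 22204 matched the gene table (GRCm38.p6). Probes of a gene were averaged, which made 31234 features. Members of a family can cross-hybridise, so a probe of an Akr1c gene may also read its relatives; probe sequences were not used here. A joint fit of all 12 arrays gave each group its mean (limma 3.58.1, R 4.3.3; up to 6 residual degrees of freedom, moderated by a prior worth 3.57). Means were tested against 0, two-sided, adjusted by Benjamini-Hochberg over every feature tested, and called at 0.05. To be tested, a feature needed values on both arrays of the group and of at least 2 further groups. The ratio leaves out the spread between wild type animals. The fit was tested on simulated data.

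Contrasts that chose the family (29-day skin, the mean at 29 days) and every 29-day value of Akr1c14 are descriptions. Named genes were the members, the 5 genes most correlated with Akr1c14 and with Akr1c6, and genes of the context lists. Per context list the plan took up to 4 members that passed in a contrast, and otherwise up to 2 of largest change in liver. The text kept to calls in liver, and to Eif2s3y and Cyp7a1 in 21-day spleen. Cyp2b13 (higher), Cyp4a12a and Slc7a11 (both lower) also passed in 21-day spleen and are not described. Calls of context genes in differences between groups are not described either. Akr1e1, Ucn3 and Lep were named after their values were seen. The members and the lists were chosen with earlier results of these data known. 1 replicate number of 21-day liver was given in order of accession. Replicate numbers at 29 days were checked: deviations of same-numbered arrays correlated between -0.21 and 0.42 over 6 tissue pairs, so they were not treated as pairs; the labels do not say what the numbers mark. Alternatives were no centring, scaling, quantile normalization, complete features, single probes, arrays of an age alone, a replicate block, robust eBayes, array weights and leaving out each array; leaving out both 21-day spleen arrays, or both skin arrays for a correlation, was chosen after seeing the data. Promoters were aligned with Biopython 1.88.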

Additional observations from a re-analysis of the deposited data

Results flagged for a closer look

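Some differences between tissues were noted because both arrays of a group had, after centring, the opposite sign to both arrays of another. The difference was not tested in any of these cases. Akr1c18 was lower in 29-day skin than in 29-day spleen by a log2 difference of -1.47 (means -1.22 and 0.25), and than in 29-day thymus by -1.51 (means -1.22 and 0.30). Akr1c6 was lower in 29-day liver than in 29-day thymus by -0.70 (means -0.58 and 0.12), and in 29-day spleen than in thymus by -0.38 (means -0.27 and 0.12). On replicate 2 of 29-day spleen Akr1c6 was at -0.0095 after centring and at 0.179 as deposited, so its sign there rests on the centring. Adipocyte markers had medians of -0.73 and -0.55 in skin with members of either sign, none passed, and their part was not tested.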

How the results depend on the processing

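Counts of features that passed depended on the processing. In the main fit they were 738 (21-day liver), 957 (21-day spleen), 32 (29-day liver), 12 (29-day skin), 0 (29-day spleen), 4 (29-day thymus), 15 (the 29-day mean), 4 (the liver ages), 20 (the spleen ages), 11 (29-day liver against the other tissues) and 35 (21-day liver against spleen). Without centring, which shifts the median of all features by up to 0.22, they were 1277 (21-day liver), 6 (29-day skin), 1 (29-day spleen), 23 (the liver ages) and 94 (21-day liver against spleen). With arrays scaled to the same spread they were 147 (21-day liver), 10 (21-day spleen), 285 (29-day liver), 427 (29-day skin), 28 (29-day thymus), 528 (the 29-day mean), 15 (the liver ages), 2 (the spleen ages), 153 (29-day liver against the other tissues) and 2 (21-day liver against spleen). After quantile normalization they were 73 (21-day liver), 12 (21-day spleen), 424 (29-day liver), 501 (29-day skin), 12 (29-day spleen), 57 (29-day thymus), 939 (the 29-day mean), 0 (the liver ages), 0 (the spleen ages), 159 (29-day liver against the other tissues) and 0 (21-day liver against spleen). With features complete on all 12 arrays they were 402 (21-day liver), 16 (29-day liver), 3 (29-day skin), 1 (29-day thymus), 7 (the 29-day mean), 0 (the liver ages), 2 (the spleen ages) and 14 (21-day liver against spleen). With single probes they were 6 (29-day skin) and 2 (29-day thymus). With arrays of an age alone they were 0 (21-day liver), 0 (21-day spleen), 57 (29-day liver), 43 (29-day skin), 24 (29-day thymus), 33 (the 29-day mean), 20 (29-day liver against the other tissues) and 0 (21-day liver against spleen). With a replicate block on the 29-day arrays they were 53 (29-day liver), 1 (29-day skin), 11 (29-day thymus) and 35 (the 29-day mean). With array weights they were 428 (21-day liver), 0 (21-day spleen), 224 (29-day liver), 569 (29-day skin), 185 (29-day thymus), 78 (the 29-day mean), 71 (the liver ages), 0 (the spleen ages), 71 (29-day liver against the other tissues) and 0 (21-day liver against spleen). Without both 21-day spleen arrays (chosen after seeing the data) they were 1947 (21-day liver), 59 (29-day liver), 35 (29-day skin), 2 (29-day spleen), 13 (29-day thymus), 48 (the 29-day mean), 68 (the liver ages) and 30 (29-day liver against the other tissues). Leaving out each array gave 288 to 1942 (21-day liver), 182 to 6422 (21-day spleen), 12 to 59 (29-day liver), 1 to 35 (29-day skin), 0 to 316 (29-day spleen), 0 to 13 (29-day thymus), 1 to 58 (the 29-day mean), 0 to 515 (the liver ages), 0 to 2593 (the spleen ages), 1 to 30 (29-day liver against the other tissues) and 0 to 4009 (21-day liver against spleen). The highest counts for 21-day liver, 29-day liver, skin and thymus came without replicate 6 of 21-day spleen, that for 21-day spleen without its replicate 11, and that for 29-day spleen without its replicate 1; the lowest for both 21-day tissues came without replicate 1 of skin. The processing moved the split of higher and lower features. In 21-day liver it was 130 and 608, against 74 and 1203 without centring and 22 and 51 after quantile normalization. In 21-day spleen it was 262 and 695, against 1 and 11 after quantile normalization. In 29-day skin it was 5 and 7, against 149 and 352 after quantile normalization. In 29-day thymus it was 0 and 4, against 5 and 23 (scaled) and 11 and 46 (quantile). Between liver ages it was 4 and 0, against 1 and 14 scaled, and between spleen ages 19 and 1, against 1 and 1. For 29-day liver against the other tissues it was 1 and 10, against 34 and 119 scaled and 40 and 119 after quantile normalization. For 21-day liver against spleen it was 10 and 25, against 12 and 82 without centring and 1 and 1 scaled. Whether the numbers at 29 days mark shared animals is not in the labels. Deviations correlated at 0.42, 0.22, 0.03 and 0.01 in 4 of 6 tissue pairs and at -0.01 and -0.21 in the others. Eif2s3y was high on replicate 2 of all 4 tissues (3.35 to 5.08) and near 0 on replicate 1, a hint from the data that same-numbered arrays share a source. The replicate block was fitted on the 29-day arrays alone, where no tested member had passed, and none passed with it. It did not cover the 21-day liver call of Akr1c14. With both numbers in each group, it cannot move a group mean, so unchanged means are no check. Akr1c14 in 21-day liver passed in the joint fit also without centring (-1.14), with single probes and with robust eBayes; it was not tested among complete features, since it lacks a value on 1 array. It stayed lower but did not pass when scaled (-0.70) or after quantile normalization (-0.70). It also did not pass with the same age alone or with array weights, which left the mean at -0.97 and so do not check its direction. Its leave-one-out range was -1.11 to -0.83, set by the fits without an array of 21-day liver. Scaling and quantile normalization widened 29-day values: Akr1c14 moved to -1.61 and -1.45 between liver ages, -2.31 and -2.15 in liver, -2.81 and -3.08 in skin and -1.35 and -1.40 in the 29-day mean, and Akr1c18 to -1.84 and -2.16 in skin. The sign turned for values that had not passed: Akr1c18 in 29-day liver (-0.034 after quantile normalization), Akr1c21 between 21-day liver and spleen (-0.0115 without centring) and Akr1c6 between liver ages (-0.38 scaled, -0.47 after quantile normalization). Leave-one-out ranges that crossed 0 or moved were -0.18 to 0.005 for Akr1c18 in 21-day liver, -0.71 to 0.036 for Akr1c21 in 21-day liver, -1.63 to 0.53 for Akr1c21 in 21-day spleen, -0.14 to 0.17 for Akr1c18 in 29-day liver, -0.013 to 0.15 for Akr1c21 in 29-day liver, -0.23 to 0.95 for Akr1c6 between liver ages, -0.048 to 0.26 for Akr1c18 between liver ages, -0.27 to 1.89 for Akr1c21 between spleen ages and -0.87 to 1.29 for Akr1c21 in 21-day liver less spleen. Of these, Akr1c21 passed in 21-day spleen and between spleen ages without replicate 6 (-1.63 and 1.89), with the lone array assumed to vary like the other groups. The causes were not tested.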
